A study of Mus musculus with 9 samples.

Results

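Apln, the gene of the peptide hormone apelin, and Aplnr, the gene of its receptor, were examined in RNA sequencing of whole hearts. Both were found by symbol and make up 2 of the 13890 genes in the count table. Both were among the 13364 genes that passed the filter on low counts, a CPM (the read count of a gene scaled to a common library size) of at least 0.5 in at least 5 of 9 libraries. Apln was selected on its measured fold change between the libraries labelled T and S, which was already known to be among the largest in these data, and Aplnr was taken as its receptor. Their values in that comparison, and in the comparisons that share its libraries, are therefore a description and carry no test.

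All 9 hearts came from male NSG mice, an immunodeficient strain on the NOD background with the scid mutation and no interleukin-2 receptor gamma chain, which accepts human cells. The mice were 8 weeks old at surgery, and the hearts were taken 3 weeks later. The 3 sham animals (S, animals 2, 3 and 5) had their spleen injected with saline and received saline each week. Every animal was thus operated and injected. The 3 animals labelled T (11, 12 and 15) are labelled as having received HCT116 cells, a human colorectal cancer line, in the spleen and weekly saline. The 3 A + T animals (20, 21 and 22) are labelled as having received HCT116 cells and weekly ACVR2B/Fc. This is a soluble activin receptor fused to an antibody Fc part that binds activins, myostatin and related ligands. The strain lacks T, B and NK cells in every group, and hearts were not split into chambers or cell types. The labels number the animals, so each library was counted as 1 animal, and the P-values measure the spread between 3 animals a group.

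Apelin is made as a precursor that is cut to shorter active peptides, and its receptor is a G protein-coupled receptor that signals through inhibitory and other G proteins and through beta-arrestins. In the heart both are found mainly in endothelial cells, where Apln marks sprouting vessels, and the receptor is also found in endocardium and in some cardiac muscle cells. The pathway is known for widening vessels through nitric oxide, for raising the force of contraction, and for vessel growth in development and under low oxygen.

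The libraries held between 12392222 and 19732471 counts, so that 3 counts, the level under which no difference was read, corresponded to between 0.152 and 0.242 CPM. The 11 listed cardiomyocyte markers summed to between 65900 and 99760 CPM in every library, as the label of heart requires. The library of A + T animal 22 stood apart by 1278 CPM of airway epithelial markers, against 104 CPM in animal 12 and at most 2.39 CPM in the others. A check of the label T did not match the study's own gene list. Across 429 genes of that list, log2 fold changes of the libraries labelled T vs. S had a Pearson r of 0.28 with the column for tumour hosts and of 0.9999 with the column for ACVR2B/Fc without a tumour. Whether the libraries labelled T are saline-treated tumour hosts or sham animals given ACVR2B/Fc, or whether the columns of that list are exchanged, cannot be told from the deposited files, and they are called labelled T throughout. A + T vs. S uses none of them in its contrast, but the labels of the A + T libraries were not checked against that list.

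Apln lies on the X chromosome at chrX:48025146-48034853 on the minus strand of GRCm38 (mm10). Its 1 annotated transcript has 3 exons and 3149 bases, and 2 of the exons are coding. The coding sequence codes for a precursor of 77 residues. It is shown because only its end becomes the hormone, so that the counts measure the message of the precursor and not the active peptide. It runs from the start codon to the stop codon over chrX:48028299-48034505, and the 39 capital bases code for the last 13 residues, the peptide apelin-13.

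Apln coding sequence: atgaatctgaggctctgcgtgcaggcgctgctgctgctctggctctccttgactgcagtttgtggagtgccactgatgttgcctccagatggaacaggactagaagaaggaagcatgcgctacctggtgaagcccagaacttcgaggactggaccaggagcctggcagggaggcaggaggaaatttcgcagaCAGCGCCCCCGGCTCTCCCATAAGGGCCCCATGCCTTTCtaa

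The 250 bases before the Apln start in RefSeq, chrX:48034854-48035103 on the minus strand of GRCm38.p6, are shown because transcription factors of the hypoxia, STAT, forkhead and SMAD families are known or proposed regulators of the gene. Both strands were searched for 6 motifs, and the 2 that were found are in capitals. GGGCGG, the GC box read by Sp factors, begins 144 bases before the start and is present in 32.7% of 32851 promoters. CAGAC, a core of SMAD binding, begins 19 bases before the start and is present in 42.2% of them.

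Apln promoter: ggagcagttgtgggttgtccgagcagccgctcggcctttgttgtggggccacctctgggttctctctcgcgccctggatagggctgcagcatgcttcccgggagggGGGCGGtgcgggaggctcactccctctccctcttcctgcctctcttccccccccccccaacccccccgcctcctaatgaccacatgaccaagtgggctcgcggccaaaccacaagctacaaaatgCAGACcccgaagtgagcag

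The letters of the other motifs were not in this window. These were ACGTG, the core of hypoxia-inducible factor sites (16.6% of promoters), CACGTG, the E-box of USF factors, which contains the former (6.02%), TTCNNNGAA, a STAT core (7.02%), and TGTTTAC, a forkhead core (3.17%). The window was 65.2% G and C, against a median of 52.4% over all promoters. A match or its absence is a description of these letters only.

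Apln was lowest in every library labelled T, highest in every S library and intermediate in A + T. In S it had 101, 173 and 117 counts, in labelled T 17, 16 and 9 counts, and in A + T 51, 52 and 76 counts. The lowest of these lay above 3 counts, but a level read from 9 to 17 counts is coarse. After scaling by library size and composition (TMM), S had 5.58, 8.78 and 8.46 CPM, labelled T 1.05, 0.951 and 0.842 CPM, and A + T 3.15, 3.73 and 4.68 CPM. No value of a group overlapped with those of another.

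The group means for Apln were 7.61 ± 1.76 CPM in S, 0.949 ± 0.106 CPM in labelled T and 3.86 ± 0.772 CPM in A + T (± SD of 3 libraries). The mean in labelled T was 0.125 of that in S, a log2 fold change of -2.98 (SE 0.26), the 6th lowest of all 13364 genes. The mean in A + T was 4.07 times that in labelled T, with a log2 fold change of 2.00 (SE 0.27) that ranked 43rd from the highest. Against S, the A + T mean was 0.507 of the level, with a log2 fold change of -0.98 (SE 0.22) that ranked 149th from the lowest. Leaving out animal 22, the library with airway markers, gave -1.14 in A + T vs. S and 1.83 in A + T vs. labelled T.

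**Figure D1:**
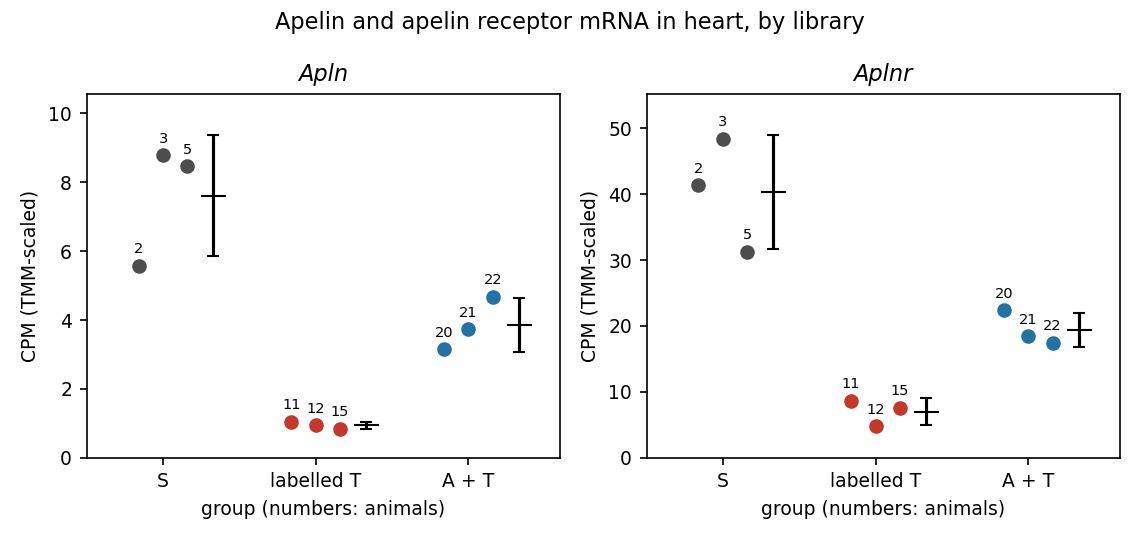
Level of Apln (left) and Aplnr (right) in each heart library, in CPM after TMM scaling, for S, labelled T and A + T. Points are libraries with their animal numbers, the horizontal bar is the group mean and the whiskers are ± 1 SD (n = 3). For both genes all S points lie above all A + T points, and these above all labelled T points.

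Aplnr, which carries the apelin signal into the cell, lies at chr2:85136225-85139923 on the plus strand of GRCm38, and its coding part, of 377 codons, lies within the single exon of the transcript used. It was more deeply covered than Apln, with 747, 954 and 432 counts in S, 140, 80 and 81 in labelled T, and 362, 257 and 283 in A + T. In CPM these were 41.3, 48.4 and 31.2 in S, 8.67, 4.76 and 7.58 in labelled T, and 22.4, 18.4 and 17.4 in A + T. Again the groups did not overlap, and their order was that of Apln.

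The means for Aplnr were 40.3 ± 8.63 CPM in S, 7.003 ± 2.02 CPM in labelled T and 19.4 ± 2.62 CPM in A + T (SD, n = 3). Labelled T had 0.174 of the S level, a log2 fold change of -2.54 (SE 0.22), the 15th lowest of all genes.

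Aplnr was higher in A + T than in labelled T by a log2 fold change of 1.48 (SE 0.22), the 141st highest. It was lower in A + T than in S, with a log2 fold change of -1.06 (SE 0.20) that ranked 116th from the lowest. With only S and A + T in the fit this was again -1.06, and without animal 22 it was -0.98. Both comparisons share libraries with the one from which the pair was selected, low in labelled T and high in S, so they are given without a P-value.

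That a gene's groups did not overlap was common in these data, being so for 42.6% of all genes in labelled T vs. S, 25.4% in A + T vs. labelled T and 32.4% in A + T vs. S. The same held for Apln and Aplnr in all 3 comparisons. In that property the members resembled many other genes.

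Levels of ligand and receptor can be set side by side only per length of the transcript. Per kilobase, Apln had 2.42 ± 0.559 CPM in S, 0.301 ± 0.0335 in labelled T and 1.22 ± 0.245 in A + T, whereas Aplnr had 10.9 ± 2.33, 1.89 ± 0.547 and 5.25 ± 0.707 (SD, n = 3). Receptor message exceeded ligand message in all 9 hearts.

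The receptor was 6.30, 4.69 and 3.14 times the ligand in S, 7.01, 4.26 and 7.66 times in labelled T, and 6.04, 4.21 and 3.17 times in A + T. The means were 4.71 ± 1.58, 6.31 ± 1.81 and 4.47 ± 1.45 (SD, n = 3), and the groups overlapped. The ratio varied as much between animals of a group as between groups, while the level of each gene separated the groups. Because the ratio holds Apln, it was not tested.

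Across the 9 libraries the log2 CPM of Apln and Aplnr correlated with a Pearson r of 0.94, and 173 of 13182 genes (1.31%) had an r of at least 0.9 with Apln. After the group means were taken out, the r between Apln and Aplnr was -0.17, so the r of 0.94 reflects the order of the groups. With 3 animals a group and 9 to 17 counts of Apln in labelled T, similarity within groups cannot be judged. These correlations are descriptions over 9 libraries that share 3 group levels.

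Endothelial content was examined because both genes are expressed mainly by endothelium. The summed level of 16 pan-endothelial markers, which included Cdh5, Tek, Tie1 and Pecam1, was between 1481 and 1724 CPM in S, 959 and 1177 CPM in labelled T, and 1099 and 1360 CPM in A + T. In bulk tissue fewer endothelial cells and less RNA per endothelial cell cannot be told apart. In labelled T vs. S, 7 of the 16 were lower and 1 was higher, with a median log2 fold change of -0.55 against -0.0038 for all genes tested (21.2% of all genes were called, 10.98% lower and 10.3% higher). Among those that fell were Kdr, the main VEGF receptor (-1.01, adjusted P = 0.00854), Cdh5, the endothelial cadherin (-0.96, adjusted P = 0.000258), and Tek, the angiopoietin receptor (-0.84, adjusted P = 0.00378). Pecam1, a junction protein, was not called (-0.40, adjusted P = 0.102). The single rise, in Sox17, an arterial transcription factor, was lost without animal 3, 5, 12 or 15.

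Both members were also set against these markers within each library, as the log2 CPM of the gene less the mean log2 CPM of the 16 markers. For Apln the difference was -3.68, -2.95 and -2.88 in S, -5.31, -5.48 and -5.82 in labelled T, and -3.93, -3.95 and -3.75 in A + T. For Aplnr it was -0.83, -0.50 and -1.01 in S, -2.41, -3.30 and -2.83 in labelled T, and -1.15, -1.68 and -1.89 in A + T. The groups kept their order and did not overlap for either gene, although the S and A + T values for Apln came close, at -3.68 and -3.75.

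On this scale the mean difference between labelled T and S was -2.36 for Apln and -2.06 for Aplnr. These differences were smaller than the -2.98 and -2.54 found relative to all genes, but the scales are unlike. The former are differences of log2 CPM with a prior count of 2, and the latter were fitted to counts. Between A + T and S the differences on the marker scale were -0.70 for Apln and -0.79 for Aplnr, and in A + T vs. labelled T 1.66 and 1.27. The change of the markers as a group is removed in this calculation, and since the pair was selected on its difference, nothing is read from what remains.

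**Figure D2:**
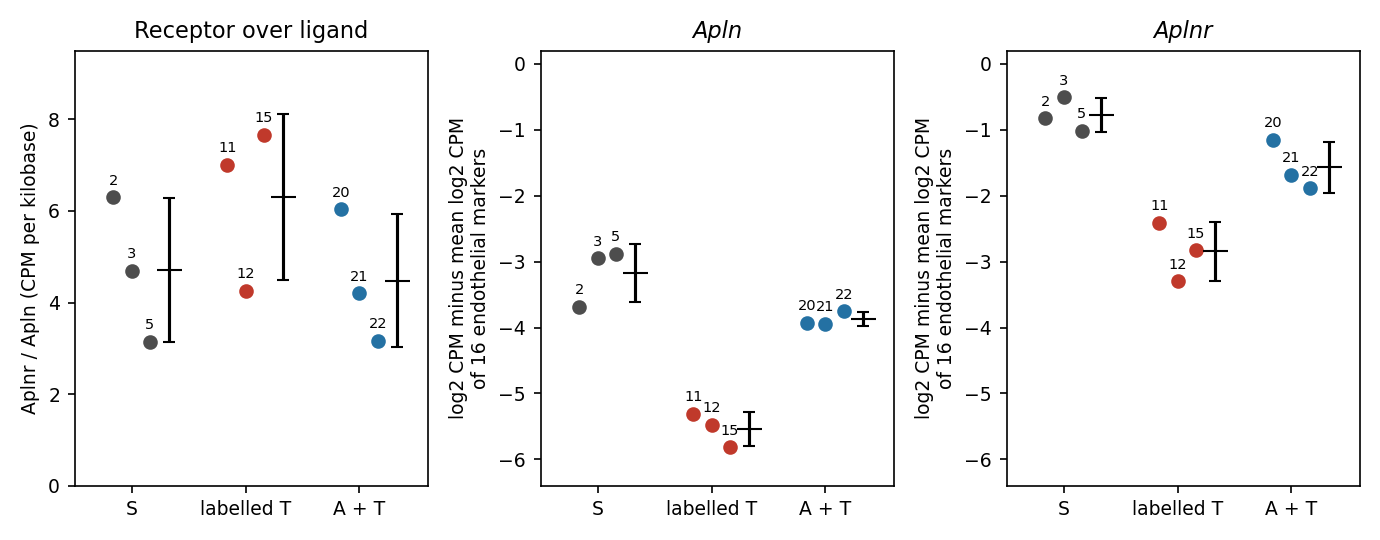
Left, ratio of Aplnr to Apln in each library from CPM per kilobase of transcript. Middle and right, log2 CPM of Apln and of Aplnr less the mean log2 CPM of 16 endothelial markers in the same library. Points are libraries with animal numbers and whiskers are the mean ± 1 SD (n = 3). The ratios of the groups overlap, from 3.14 to 7.66, while both marker-adjusted levels are lowest in labelled T.

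Of the genes that make or break down apelin, Furin, a protease that cuts peptide precursors, was not called in labelled T vs. S (log2 fold change 0.31, adjusted P = 0.0519) and was lower in A + T than in labelled T (-0.47, adjusted P = 0.0275), where 5.88% of all genes were called at an adjusted P under 0.05, 3.09% higher and 2.79% lower. That call was lost without animal 11, 12, 15 or 21. Mme, encoding neprilysin, a membrane peptidase that degrades apelin and natriuretic peptides, had 25.9, 25.8 and 24.0 CPM in S, 11.8, 13.4 and 11.9 CPM in labelled T, and 19.5, 18.0 and 21.8 CPM in A + T. It fell in labelled T vs. S (-1.03, SE 0.10, adjusted P = 0.00019) and was higher in A + T than in labelled T (0.68, SE 0.10, adjusted P = 0.00722), and its groups did not overlap. Between A + T and S, where 8.31% of genes were called, 4.67% higher and 3.64% lower, Mme was not called (-0.35, adjusted P = 0.0519). Apela, which encodes the other known ligand of the receptor, and Klkb1, which encodes plasma kallikrein, were not analysed here.

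The list of receptor coupling genes held 12 genes, of which Aplnr, selected with Apln, is not read as a test. The other 11 were not called in labelled T vs. S, where 21.2% of all genes were called. The G protein subunits Gnai1, Gnai2, Gnai3, Gnaq, Gna11 and Gna13, the receptor kinases Adrbk1 and Grk5, and Agtr1a, the angiotensin II type 1 receptor, were called in none of the 3 comparisons. Arrb1, a beta-arrestin that desensitizes such receptors, was at 52.5 ± 5.80 CPM in S, 35.8 ± 3.96 in labelled T and 52.8 ± 15.4 in A + T (SD, n = 3). Its difference between labelled T and S was not called (-0.55, adjusted P = 0.0508). Without animal 12, 15, 20 or 22, 1 gene of the list besides Aplnr was called lower in labelled T vs. S. In the same comparison 1 was called higher without animal 15 and 2 without animal 22.

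Arrb2, the other beta-arrestin, was called in A + T but not in labelled T. It was at 11.6 ± 1.41 CPM in S, 10.2 ± 2.04 in labelled T and 17.8 ± 1.68 in A + T (SD, n = 3). It was higher in A + T than in labelled T (0.80, SE 0.15, adjusted P = 0.0189), a call lost without animal 11 or 20. It was also higher in A + T than in S (0.62, SE 0.15, adjusted P = 0.0348), a call lost without animal 2, 3, 20 or 22. Macrophages, which also express Arrb2, had 7 of 8 listed markers called higher in A + T than in S, against 4.67% of all genes. The marker sums were 569 to 812 CPM against 343 to 382 CPM. The part of macrophages in the Arrb2 value was not tested.

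**Figure D3:**
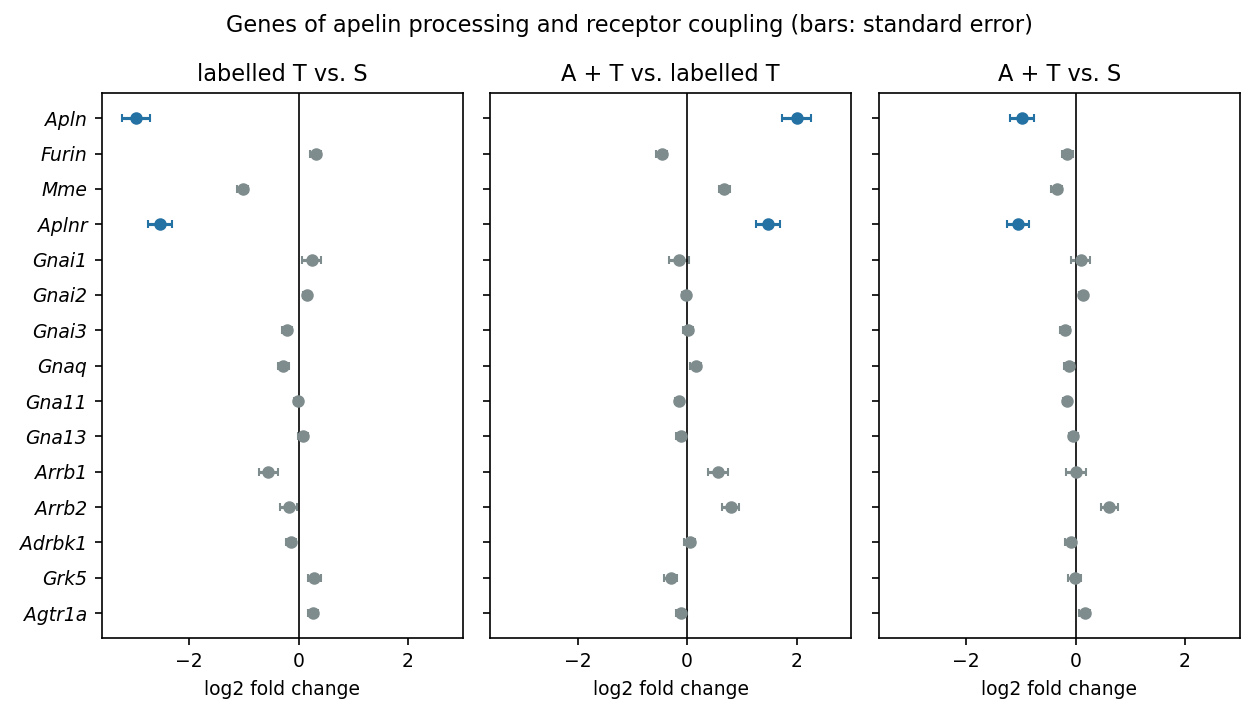
Log2 fold changes of the reported apelin processing genes and the receptor coupling genes in labelled T vs. S (left), A + T vs. labelled T (middle) and A + T vs. S (right). Points are edgeR estimates from 9 libraries, whiskers are ± 1 standard error, and Apln and Aplnr are in blue. The members lie at -2.98 and -2.54 on the left, while the G protein subunits lie near 0 in all panels.

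Downstream of the receptor, 21 effectors were listed, from nitric oxide synthesis to MEF2 and AMPK signalling. In labelled T vs. S, 2 rose and 1 fell, and the median log2 fold change was 0.05. Among all genes 10.3% were called higher and 10.98% lower. Nos3, the endothelial nitric oxide synthase, fell by 0.47 on the log2 scale in labelled T vs. S (adjusted P = 0.0162), a call lost without animal 2, 11 or 12. Relative to S it was also lower in A + T, by a log2 fold change of -0.54 (adjusted P = 0.02), a call lost without animal 2, 3 or 20. Between A + T and labelled T, Nos3 differed by -0.07 (SE 0.12) and was not called.

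Rps6kb1, the S6 kinase that promotes protein synthesis, rose in labelled T vs. S (0.38, SE 0.07, adjusted P = 0.00318). Ppargc1a, the coactivator of mitochondrial biogenesis, rose from 184 ± 24.7 to 319 ± 92.3 CPM (SD, n = 3; 0.79, adjusted P = 0.0325), a call lost without animal 2, 3, 5, 11 or 15. In A + T vs. labelled T both were lower, Ppargc1a by a log2 fold change of -0.97 (adjusted P = 0.0367), a call lost without animal 2, 3, 5, 11, 15, 20 or 21, and Rps6kb1 by -0.26 (adjusted P = 0.0443), a call lost whichever library was left out. Neither was called in A + T vs. S. The other 18 effectors were not called in labelled T vs. S, among them Klf2, the flow-responsive factor of endothelium (-0.17, SE 0.45).

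The 13 listed regulators of Apln transcription went in both directions in labelled T vs. S, with 4 higher and 3 lower and a median of 0.11. The shares over all genes were 10.3% higher and 10.98% lower. Stat3, the transcription factor of interleukin-6 family signalling, had 167, 164 and 188 CPM in S, 372, 324 and 379 CPM in labelled T, and 270, 284 and 237 CPM in A + T. It rose in labelled T vs. S (1.05, SE 0.10, adjusted P = 0.000175) and in A + T vs. S (0.61, SE 0.10, adjusted P = 0.00812). Its groups did not overlap, in the reverse of the order of Apln and Aplnr.

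Hif1a, the oxygen-sensing factor known to raise Apln transcription, rose slightly in labelled T vs. S (0.37, SE 0.08, adjusted P = 0.0112). Insr, the insulin receptor, rose by 0.58 (adjusted P = 0.0124), a call lost without animal 3, and Foxo3, a forkhead factor, by 0.44 (adjusted P = 0.0462), a call lost without animal 2, 3, 5, 11, 12, 20 or 21. Vegfa, the main growth factor of vessels, fell by 0.49 (adjusted P = 0.023), a call lost without animal 2, 3, 5, 11 or 12, and Dll4, a Notch ligand of sprouting endothelium, fell by 0.83 (adjusted P = 0.00848).

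The direction of Hif1a was set beside 19 hypoxia-inducible genes, since Apln is itself induced by low oxygen. In labelled T vs. S 7 of them rose and 4 fell, and the median was 0.26, while 10.3% of all genes were called higher and 10.98% lower. Bnip3, a mitophagy receptor, rose by 1.25 (adjusted P = 8.89e-05) and Slc2a1, the glucose transporter GLUT1, by 0.66 (adjusted P = 0.00746), whereas Egln3, an oxygen-sensing hydroxylase, fell by 0.85 (adjusted P = 0.00493). The count of 4 that fell was 2 without animal 2, 3, 11 or 12.

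Of 14 genes of BMP and ALK1 signalling, the activin receptor-like pathway of endothelium, 3 were lower and none higher in labelled T vs. S (1 higher without animal 22). As 21.2% of all genes were called there, 10.98% lower and 10.3% higher, a count of 3 is near the share over all genes. Eng, encoding endoglin, the coreceptor for BMP9 and BMP10, fell by 0.72 (adjusted P = 0.00575) and Id2, a direct target of BMP signalling, by 0.62 (adjusted P = 0.00511). The third was Bmp10, an atrial ligand (-6.07, adjusted P = 0.0135), whose call was lost without animal 11 or 12. Bmp10 had 66.1, 158 and 91.9 CPM in S and 1.86, 1.13 and 1.78 CPM in labelled T. In A + T it had 0.247, 0.359 and 51.6 CPM, the last in animal 22. Id1 (0.21, adjusted P = 0.415) and Id3 (-0.03, adjusted P = 0.924) were not called, and the median of the 14 genes was -0.08. Sums of 7 atrial markers were between 3223 and 3274 CPM in S, 880 and 4860 CPM in labelled T, and 818 and 2192 CPM in A + T. The sum of 4860 CPM was that of animal 12, which had 1.13 CPM of Bmp10. The A + T sums thus lay below all S sums, with a median log2 fold change of -1.17 and no marker called. The part of atrial tissue in the values of Bmp10, Apln and Aplnr was not tested. In A + T vs. S the differences of Eng (-0.51, adjusted P = 0.0523) and Id2 (-0.10, adjusted P = 0.628) were not called.

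Genes of endothelial tip cells, the leading cells of sprouts in which Apln is enriched, were lower as a group in labelled T. Of 21 listed genes, which did not include Apln or Aplnr, 13 fell and none rose, with a median of -0.76 against -0.0038 for all genes. Of all genes 10.98% were called lower and 10.3% higher. Kdr and Robo4 are also pan-endothelial markers, and Kdr and Dll4 also listed regulators of Apln, so these counts overlap. Cxcr4, a chemokine receptor of migrating cells, had 6.25, 6.70 and 4.77 CPM in S, 1.36, 1.55 and 2.43 CPM in labelled T, and 7.98, 4.02 and 7.58 CPM in A + T (labelled T vs. S -1.77, adjusted P = 0.00318). Fscn1, which bundles actin in filopodia, fell by 1.54 (adjusted P = 0.000439), and Angpt2, the angiopoietin released at sprouting vessels, fell by 1.52 (adjusted P = 0.00223). When each library was left out in turn, between 10 and 15 of the 21 were called lower.

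In A + T vs. labelled T, where 3.09% of all genes were called higher, 4 tip cell genes were higher and none lower, with a median of 0.42. The 4 were Cxcr4, Angpt2, Fscn1 and Nrp1, a VEGF coreceptor, of which Nrp1 was named after its values were seen. The count was 0 without animal 11, 2 without animal 20 or 21, and 9 without animal 22. Against S, 6 tip cell genes were lower in A + T (3.64% of all genes), with a median of -0.34, but none was called without animal 2 or without animal 3. Cxcr4 did not differ detectably between A + T and S (0.14, SE 0.27).

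Markers of vessel types went in both directions in labelled T vs. S, where 10.3% of all genes were called higher and 10.98% lower. Several lists share genes, so their counts are not separate results. The capillary fall was Kdr and the arterial rise Sox17, both also pan-endothelial markers. Vwf was counted among both the venous and the endocardial falls, and Flt4 is also a tip cell gene. In labelled T vs. S, 1 of 8 capillary markers rose and 1 fell, with a median of 0.32. The rise, in the fatty acid receptor Cd36, was lost without animal 2, 5, 11, 12, 15, 20 or 21, and the count was 4 without animal 22. In the same comparison 2 of 6 venous markers fell, with a median of -0.54. Of 6 endocardial markers 3 fell, with a median of -0.86, among them Tmem108 (-1.64, adjusted P = 0.00154). Of 8 arterial markers 2 fell and 1 rose, with a median of -0.36, and the count of falls was 1 without animal 2, 5, 11 or 15 and 4 without animal 12. Of 6 lymphatic markers 1 fell, Flt4, the receptor of VEGF-C, with a median of -0.20, and this call was lost without animal 2, 11 or 12.

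Markers of cells other than endothelium were examined as well, and not all of them followed the order of the members. The shares called over all genes in labelled T vs. S were 10.98% lower and 10.3% higher. All 7 fibroblast markers, including the collagen gene Col3a1 (-1.98, adjusted P = 0.000989), were lower in labelled T vs. S, with sums of 1716 to 1886 CPM in S, 894 to 1033 CPM in labelled T and 1240 to 1956 CPM in A + T. Of 9 mural cell markers 5 fell, with a median of -0.74, but in A + T vs. labelled T their median was -0.07. Of 11 cardiomyocyte markers, 2 rose and 1 fell, with a median of -0.03, and the 2 rises were lost in part or in whole without any 1 of animals 2, 3, 5, 11, 12, 15, 20 or 21, while 2 fell without animal 22. Adipocyte markers, read because adipocytes are a known source of apelin, summed to between 40.4 and 80.1 CPM in S, 54.2 and 179 CPM in labelled T, and 41.1 and 57.9 CPM in A + T. Cidea alone had between 24.4 and 48.9 CPM, so these sums do not measure fat in each heart. Adipoq, a defining adipocyte marker, had 15.6 CPM in animal 12 and at most 4.34 CPM in the others. The part of these cell types in the values of Apln and Aplnr was not tested.

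**Figure D4:**
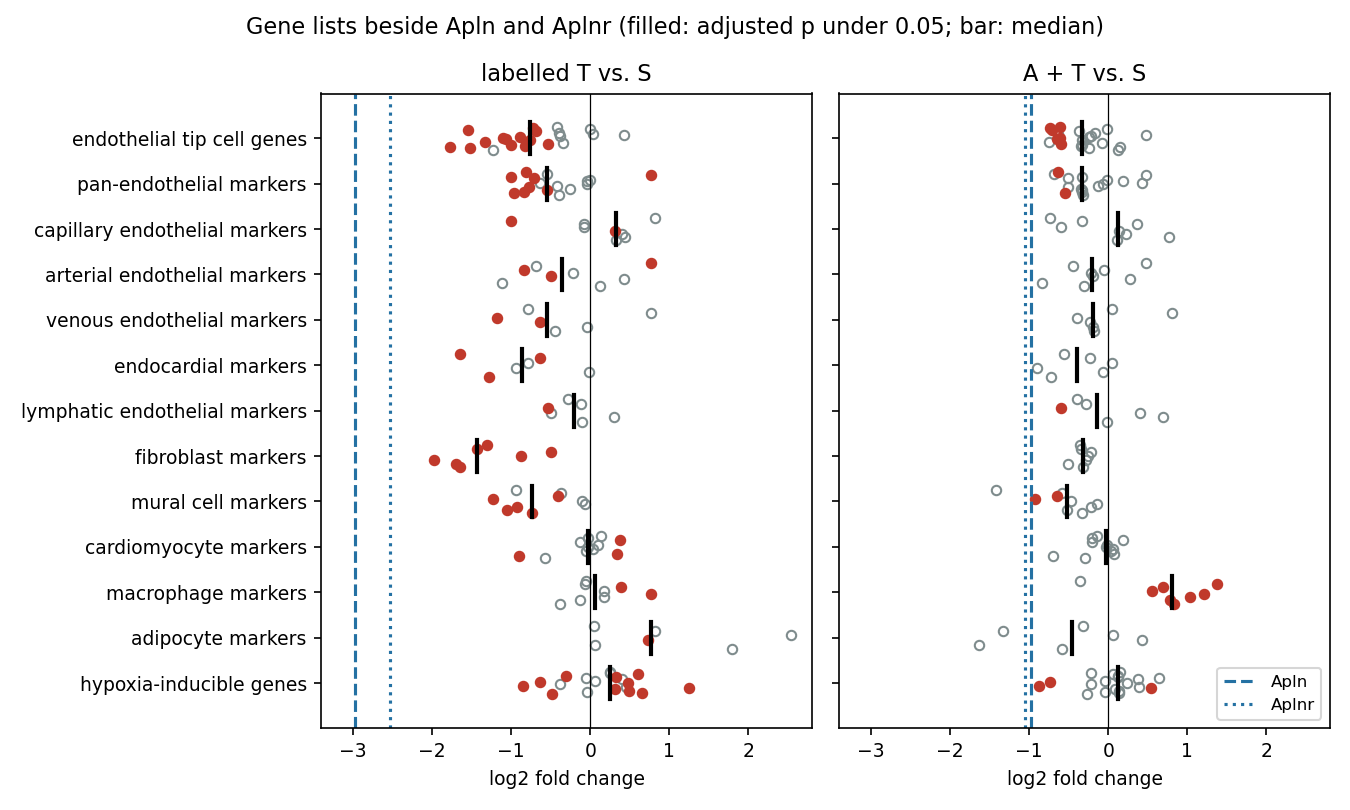
Log2 fold changes of the genes of the lists named on the vertical axis in labelled T vs. S (left) and A + T vs. S (right). Each point is a gene, filled where its adjusted P was under 0.05, black bars are list medians, and the vertical lines mark Apln (dashed) and Aplnr (dotted). The lines stand at -2.98 and -2.54 on the left, where 13 tip cell genes and all 7 fibroblast markers are filled and lie below 0, and at -0.98 and -1.06 on the right.

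The genes most like each member were taken as the 5 with the highest Pearson r of log2 CPM over the 9 libraries, among 13182 genes with a mean of at least 10 counts. For Apln these were Cryba4, a crystallin gene (r = 0.99), Tcf3, a basic helix-loop-helix factor (0.98), St6gal1, a sialyltransferase (0.97), Nrep (0.97) and Mme (0.97). As 173 genes had an r of at least 0.9 with Apln, nothing is read from the place of Mme. For Aplnr they were Pcdh12, an endothelial protocadherin (0.99), Fscn1 (0.99), Spon2, a secreted matrix protein (0.98), Akap12, a scaffold for protein kinase A (0.98), and Gm6086 (0.98).

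Similar patterns did not mean similar sizes. Mean CPM of Cryba4 was 6.09 in S, 2.29 in labelled T and 4.42 in A + T, and that of Tcf3 was 24.8, 18.5 and 22.9, so Tcf3 moved with Apln over a much narrower range. Among the genes most like Aplnr, Spon2 was at 19.2, 3.32 and 8.66 CPM and Pcdh12 at 30.1, 7.67 and 16.2 CPM. Spon2 had log2 fold changes of -2.56 in labelled T vs. S and -1.15 in A + T vs. S, beside -2.54 and -1.06 for Aplnr.

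By deviations from the group means, the 5 genes most like Apln were Diablo (0.99), Parp9 (0.99), BC022687 (0.98), Zfp775 (0.98) and Creg1 (0.98), and those most like Aplnr were Osbpl11 (0.97), Rftn1, Nat1, Zfp939 and Nit2 (0.95). None of them was among the genes most like the members over all libraries. With Spearman's in place of Pearson's correlation, 1 of the 5 genes remained for each member, Tcf3 for Apln and Fscn1 for Aplnr, so the order within these lists is loose.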

How the data were processed

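Heart RNA of 9 mice was analysed, 3 each in S, labelled T and A + T, grouped from the sample labels. The authors extracted RNA and sequenced all libraries at the same time, aligned paired ends to mm10 with STAR, and counted unique, strand-matched reads on RefSeq genes with featureCounts. They deposited counts per gene without normalization, and log2 values per gene, which served only as an alternative for the receptor to ligand ratio. The 3443 blank rows of the count table were left out.

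Genes under 0.5 CPM in more than 4 of 9 libraries were removed. The counts of all 9 libraries entered 1 quasi-likelihood fit with TMM factors in edgeR 4.0.16 under R 4.3.3, and P-values were adjusted over 13364 genes by Benjamini-Hochberg. A gene was called at an adjusted P under 0.05. Each SE was derived from the fold change and the F statistic. The steps were tested on simulated data. CPM per kilobase used GENCODE M21 transcript lengths of GRCm38, and log2 CPM used a prior count of 2. Promoters came from RefSeq (GRCm38.p6).

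The members and lists were chosen with earlier results of these data known. Tests planned for Aplnr are therefore not printed, since each comparison shares libraries with the one that selected the pair. Named were the members, the genes of the processing and coupling lists, of other lists up to 3 of the largest rises and falls among called genes with a mean of at least 10 counts in labelled T vs. S or A + T vs. S, defining markers near 0, and the 5 genes most like each member. One gene of the processing list is not reported here. Other genes are named as examples of their list. Alternatives were DESeq2 1.42.0, limma-voom (limma 3.58.1), other normalizations and filters, fits of 2 groups, each library left out and, chosen after seeing the data, the ribosomal gene Rn45s left out. Figures were drawn with matplotlib 3.10.9 under Python 3.11.15.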

Additional observations from a re-analysis of the deposited data

How the results depend on the processing

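Apln and Aplnr kept their direction in every comparison under every alternative run. When each library was left out in turn, Apln ranged from -3.15 to -2.86 in labelled T vs. S, from 1.83 to 2.13 in A + T vs. labelled T and from -1.15 to -0.85 in A + T vs. S. Aplnr ranged from -2.74 to -2.31, from 1.25 to 1.69 and from -1.21 to -0.90. The ratio of receptor to ligand ranged from 3.92 to 5.495 in S, from 5.63 to 7.34 in labelled T and from 3.69 to 5.13 in A + T. Genes called in labelled T vs. S numbered 2838, and 1636 with library totals only. In A + T vs. labelled T they numbered 786, and 1200 with DESeq2, 438 with library totals only and 217 with only these groups in the fit, which has fewer libraries to estimate the spread. In A + T vs. S they numbered 1110, and 555 with library totals only. The cause of the other changes was not tested. With a library left out they numbered 1765 (without animal 11) to 3786 (without animal 22), 130 (without animal 11) to 1006 (without animal 22), and 269 (without animal 2) to 1086 (without animal 12). Apln could not be fitted where at least 10 counts were required in every library, since animal 15 had 9. No paired analysis was possible because the groups share no animal numbers. Depth limits mainly Apln in labelled T, with 9 to 17 counts.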

Other observations

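Other vasoactive peptides and their receptors, 14 genes tested, went in both directions. In labelled T vs. S 2 rose and 2 fell, with a median log2 fold change of -0.18, and 4 fell without animal 12 or without animal 22. Of all genes, 10.3% were called higher and 10.98% lower in this comparison. Agt, the precursor of angiotensin II, rose by 1.77 (adjusted P = 0.000232) and Ednra, an endothelin receptor, by 0.87 (adjusted P = 0.00027). Both were called in all 9 fits that left out a library. Npr3, the clearance receptor of natriuretic peptides, was lower (-1.28, adjusted P = 0.0187), a call lost without animal 2, 3, 11 or 15, as was Ace, which makes angiotensin II (-0.78, adjusted P = 0.0172), a call lost without animal 2 or 11. In A + T vs. S, where 8.31% of all genes were called, the only gene called was Nppb, the gene of B-type natriuretic peptide (-0.87, adjusted P = 0.0371). This call was lost without animal 2, 3, 20 or 22. Sums of atrial markers were lower in every A + T library than in every S library. The part of atrial tissue in the values of Nppb and Npr3 was not tested.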
